A study of Saccharomyces cerevisiae with 11 samples.

Results

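The genes described here are 9 of budding yeast (Saccharomyces cerevisiae) that serve ribonucleotide reductase and the response to damaged or stalled DNA: RNR1, RNR2, RNR3, RNR4, HUG1, DUN1, DIN7, RAD54 and PHR1. They were taken by name, and are 9 of 7035 features used. All 9 had a row and all 9 passed the filter on low values, at least 1 TPM (a read count scaled for transcript length and library total) in at least 2 libraries. Stranded RNA sequencing of ribosomal RNA-depleted total RNA was done on 11 cultures of a W303 strain of mating type a. All cultures carried can1-100, the leu2 allele usual in W303, ade2-1, trp1-1, his3-11,15, an ADH1-OsTIR1 construct at ura3-1 and the chromosomal allele SCC2-AID*-6FLAG, whose protein is degraded through OsTIR1 once auxin is added. Scc2 and its partner Scc4 load cohesin, the ring that holds sister DNAs together. A plasmid with the HIS marker supplied 7MYC-tagged Scc2 as WT (3 cultures), as the variant R787G (3 cultures) or as the variant G1242V (3 cultures), or no Scc2 at all (NULL, an empty vector, 2 cultures). Cells of all 4 groups had spent 9 hours in 1 mM auxin (3-indoleacetic acid) at harvest, so no group here is without auxin or without the degron. The labels do not say whether cultures of a group came from separate transformants.

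Ribonucleotide reductase converts ribonucleotides to deoxyribonucleotides, the step that limits the supply of DNA building blocks. Rnr1 is the main large, catalytic subunit and Rnr3 a large subunit made mostly after DNA damage, while Rnr2 and Rnr4 form the small subunit. When DNA is damaged or forks stall, the kinases Mec1, Rad53 and Dun1 act in series. Dun1 leads to removal of the inhibitor Sml1 and to release of the repressor Rfx1 (also called Crt1) from its sites, the X-boxes, in front of RNR2, RNR3, RNR4 and HUG1. RNR1 is instead known as a gene of the G1/S transition, activated through MCB elements by the factor MBF.

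TPM keep no sequencing depth, so the counting error behind each value is unknown and precision shows only through the spread between cultures. Levels below are TPM scaled by 1 factor per library (0.882 to 1.08), given as mean ± SD with n = 3, or n = 2 for NULL. Fold changes are log2 differences ± SE on log2(scaled TPM + 1), tested with limma over 6432 features with Benjamini-Hochberg adjustment and a threshold of 0.05, and intervals are 95% confidence intervals. Changes of weakly expressed genes come out too small on this scale. SCC2 itself stood between 78.1 and 132 scaled TPM in the 9 libraries with a plasmid copy and at 23.9 and 22.5 in NULL, where it fell against WT by -2.21 ± 0.14 on the log2 scale (limma adjusted p = 2.34e-06). The 6 a-cell markers (MFA1, MFA2, STE2, STE6, BAR1, AGA2) summed to 549 to 950 scaled TPM and the 4 alpha-cell markers to 28.9 to 56.0. WT replicate 2 held 9.19% of its TPM in ribosomal RNA features against 0.155% to 0.494% elsewhere. The median chromosome IX gene was higher by 0.45 in R787G replicate 3 and 0.22 in G1242V replicate 3 than the WT mean (log2), which touches RNR3 alone among the 9 genes. In the other 9 libraries this median lay between -0.12 and 0.026.

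The DNA in front of these genes holds the sites named above. The first set shows matches to GGCAAC, an arm of the X-box, in capitals (GTTGCC where the match is on the other strand), with flanking bases in lower case. Each line reads 5′ to 3′ on the strand of the gene, from the reference genome R64 (the sequence of sacCer3).
HUG1, chrXIII:158536-158563, plus strand: aatacgtaaagGTTGCCttcgtatctcg
HUG1, chrXIII:158583-158610, plus strand: cgagatacgaaGGCAACtgattcccagc
RNR4, chrVII:856671-856698, minus strand: ggcgttgttgtGGCAACaccatcctctt
The longer arm ATGGCAAC, in capitals below, was found before RNR2 and RNR3.
RNR2, chrX:391958-391987, plus strand: gcgcgatcgccATGGCAACgaggtcgcaca
RNR3, chrIX:240961-240990, minus strand: gcaaaaacccgGTTGCCATggcgaggacca
GGCAAC, searched on both strands of the 500 bases before the start codon, occurred before 5 of the 9 genes (all 4 RNR genes and HUG1) and in 13.7% of 6000 such windows of nuclear protein-coding genes. ATGGCAAC, which contains GGCAAC, occurred before 2 of the 9 and in 1.75% of windows.

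The second set shows the MCB element ACGCGT in capitals. RNR1 had 4 matches, of which the pair nearest the gene is printed, RAD54 had 2, and RNR3, DUN1 and DIN7 had 1 each.
RNR1, chrV:298568-298595, plus strand: attctaagtaaACGCGTcattttgatcc
RNR1, chrV:298633-298660, plus strand: ttgaatagaggACGCGTaaaaacgatat
DUN1, chrIV:281995-282022, minus strand: tacgtgacgcgACGCGTttgtttacttt
DIN7, chrIV:995703-995730, minus strand: ttaccattttgACGCGTtccgtgacacg
RNR3, chrIX:240879-240906, minus strand: gtgagatgctgACGCGTttcgtttttcg
RAD54, chrVII:196646-196673, minus strand: aaaagtattttACGCGTtacccaatata
ACGCGT occurred before 5 of the 9 genes and in 5.42% of the 6000 windows. The SCB element CGCGAAA of the factor SBF occurred before RAD54 only, against 5.82% of windows. PHR1 had no match to any of the 4 motifs, and apart from GGCAAC within ATGGCAAC no matches overlapped. A match describes letters in a window and is not shown to be bound.

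**Figure D1:**
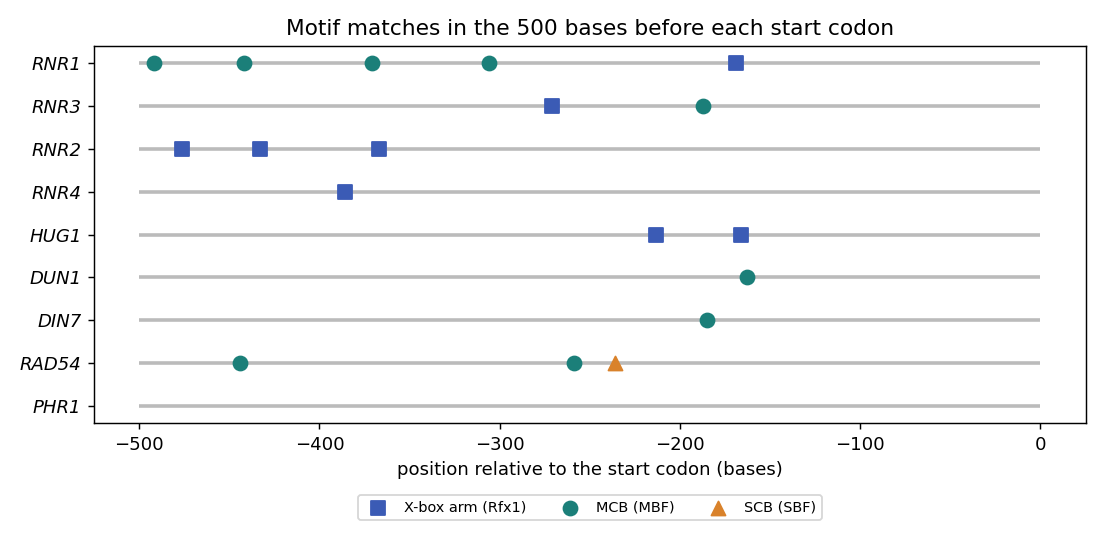
Motif matches before each gene, with distance from the start codon in bases on the horizontal axis and 1 line per gene. Squares are X-box arms (GGCAAC), circles MCB elements and the triangle an SCB element. RNR2, RNR4 and HUG1 carry X-box arms without MCB, DUN1, DIN7 and RAD54 carry MCB without an X-box arm, and RNR1 and RNR3 carry both.

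RNR1, the main catalytic subunit (YER070W, chromosome V, 298950 to 301616), was higher than in WT in all 3 other groups. It measured 32.9, 29.7 and 34 scaled TPM in the WT cultures and 107, 107 and 113 in R787G. In G1242V it measured 87.4, 99.5 and 61.3, and in NULL 63.9 and 61.5. Every library of the other groups lay above every WT library, and replicate 3 of G1242V lay at the level of NULL. RNR1 rose by 1.73 ± 0.14 in R787G (limma adjusted p = 6.18e-06), which is 3.38 times the WT mean. In G1242V it rose by 1.31 ± 0.14 (limma adjusted p = 5.16e-05) and in NULL by 0.94 ± 0.16 (limma adjusted p = 6.75e-04). The order was WT, NULL, G1242V, R787G. The neighbours NULL and G1242V did not differ past the threshold (0.37, interval 0.0062 to 0.73, limma adjusted p = 0.0708), but without replicate 3 of G1242V they did (0.57, limma adjusted p = 6.01e-04). R787G stood above G1242V by 0.42 ± 0.14 (limma adjusted p = 0.0374), and without that replicate this call ended (0.22, limma adjusted p = 0.0544). It also ended without replicate 1, 2 or 3 of R787G (limma adjusted p = 0.0763, 0.0788 and 0.100), and was kept under 14 of 23 alternatives.

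RNR3, the damage-induced large subunit (YIL066C, chromosome IX, 238099 to 240708), followed another order. WT cultures had 7.29, 9.11 and 9.29 scaled TPM, R787G 12.1, 12.8 and 15.7, G1242V 7.16, 8.70 and 8.48, and NULL 21.3 and 19.5. G1242V overlapped WT, R787G lay above both, and NULL lay above all other libraries. The rise against WT was 1.17 ± 0.13 in NULL (limma adjusted p = 5.49e-05) and 0.60 ± 0.12 in R787G (limma adjusted p = 0.00141). G1242V did not differ from WT past the threshold, at -0.067 with an interval of -0.33 to 0.20 (limma adjusted p = 0.669). Replicate 3 of R787G, the highest of its group, is the library with the raised chromosome IX. Without it and replicate 3 of G1242V, the rise in R787G was 0.49 (limma adjusted p = 0.00781). RNR3 in R787G was below NULL by -0.56 ± 0.13 (limma adjusted p = 0.00932), a call that ended without replicate 1 of NULL (-0.50, limma adjusted p = 0.0801).

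RNR1 and RNR3 share 76.2% of their aligned coding bases but no identical stretch of 50 bases, the read length, and no gene overlaps any of the 9, so their TPM can be set side by side. RNR3 made up 18.1%, 23.5% and 21.4% of the summed TPM of RNR1 and RNR3 in the WT cultures. In R787G this share was 10.2%, 10.7% and 12.2%, in G1242V 7.57%, 8.04% and 12.2%, and in NULL 25% and 24.1%. Shares of TPM within a library do not depend on a scaling factor for the whole library. Both variants lay below every WT library in this share, and NULL lay above every WT library. The highest share of each variant (12.2%) was that of replicate 3, the library with the raised chromosome IX, which carries RNR3. In R787G replicate 3 RNR3 was the highest of its group (15.7 scaled TPM). In G1242V replicate 3 RNR3 was not (8.48, beside 7.16 and 8.70), while RNR1 was the lowest (61.3, beside 87.4 and 99.5).

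The small subunit genes moved in opposite directions. RNR4 (YGR180C, chromosome VII, 855264 to 856301) measured 224, 233 and 280 scaled TPM in WT and 444, 436 and 414 in R787G. It measured 404, 391 and 376 in G1242V and 431 and 430 in NULL. All 8 libraries outside WT lay above all WT libraries. Its rise was 0.82 ± 0.084 in R787G (limma adjusted p = 2.33e-05), 0.67 ± 0.084 in G1242V (limma adjusted p = 1.18e-04) and 0.81 ± 0.094 in NULL (limma adjusted p = 5.81e-05). With the scaling used here the 3 groups did not differ from each other past the threshold, with R787G against NULL at 0.0034 (interval -0.21 to 0.21, limma adjusted p = 0.980). After quantile normalization this difference was -0.37 (limma adjusted p = 0.0119), and the rise in G1242V was 0.37. G1242V against NULL was -0.14 (limma adjusted p = 0.217), but passed as lower under all 3 other scalings (-0.40 as deposited, -0.48 rescaled to coding genes and -0.69 after quantile normalization, limma adjusted p = 0.00397, 0.00106 and 1.88e-04). R787G against G1242V was 0.14 (limma adjusted p = 0.184) and passed as higher under the same 3 (0.27, 0.25 and 0.33, limma adjusted p = 0.0264, 0.0340 and 0.0104).

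RNR2 (YJL026W, chromosome X, 392404 to 393603) was the most abundant of the 9 genes in the WT cultures, at 488, 511 and 516 scaled TPM. R787G had 451, 468 and 455, G1242V 425, 408 and 406, and NULL 366 and 365. The levels fell from WT through R787G and G1242V to NULL, and no library overlapped with another group. The fall was -0.47 ± 0.062 in NULL (limma adjusted p = 1.44e-04) and -0.29 ± 0.056 in G1242V (limma adjusted p = 0.00157). In R787G it was -0.14 ± 0.056 (limma adjusted p = 0.0462), and this call was lost under 15 of 23 alternatives. The size of the fall depended on the scaling: in NULL it was -0.20 after rescaling to protein-coding genes, and in G1242V it was -0.64 after quantile normalization. RNR2 in R787G was above NULL by 0.32 ± 0.062 (limma adjusted p = 0.00361), a call lost after rescaling to coding genes (0.09, limma adjusted p = 0.298) and after quantile normalization (0.025, limma adjusted p = 0.791). RNR2 in G1242V was above NULL by 0.18 ± 0.062 (limma adjusted p = 0.0319), but below it under each other scaling. The difference was -0.082 as deposited (limma adjusted p = 0.283), -0.16 after rescaling to coding genes (limma adjusted p = 0.0579) and -0.29 after quantile normalization (limma adjusted p = 0.00415).

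The ratio of RNR2 to RNR4 TPM within a library does not change with any scaling by 1 factor per library. Quantile normalization is not such a scaling and was not applied to the ratio. It was 2.18, 2.20 and 1.85 in WT, 1.01, 1.07 and 1.10 in R787G, 1.05, 1.04 and 1.08 in G1242V, and 0.848 and 0.850 in NULL. Thus the TPM of RNR2 was about double that of RNR4 in WT, close to it in both variants and below it in NULL. The ratio of RNR1 to RNR2 was 0.0638 ± 0.00502 in WT, 0.238 ± 0.0101 in R787G, 0.200 ± 0.0467 in G1242V and 0.171 ± 0.00462 in NULL. These ratios are given without a test: for 3 cultures against 3, the smallest two-sided p of an exact permutation test is 0.1.

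**Figure D2:**
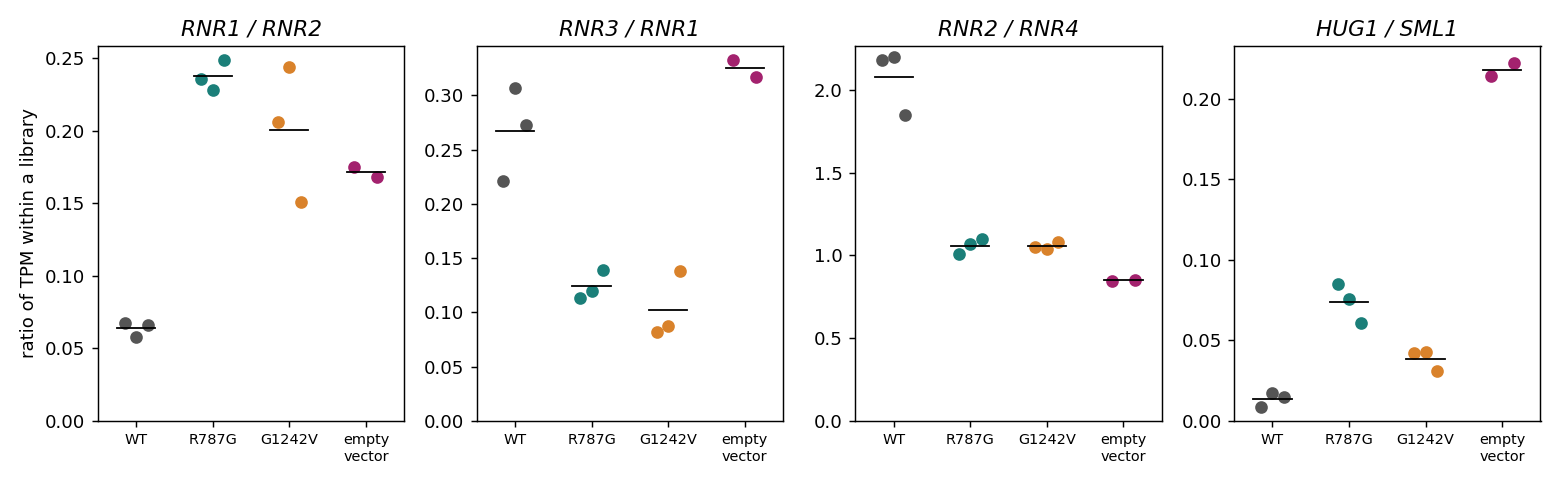
Ratios of TPM within each library (vertical axes, no unit, from 0) by group, with points for libraries and lines for group means. RNR2/RNR4 falls from 2.07 on average in WT to 1.06 in both variants and 0.849 in NULL (empty vector), while RNR3/RNR1 is lower in the variants (0.124 and 0.103) than in WT (0.267) or NULL (0.325).

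HUG1 encodes a small protein that binds the small subunit of ribonucleotide reductase and inhibits the enzyme, and it is strongly induced by DNA damage (YML058W-A, chromosome XIII, 158760 to 158966). It measured 3.28, 6.16 and 5.33 scaled TPM in WT, 30.3, 27.7 and 21.9 in R787G, 14.8, 14.4 and 9.40 in G1242V, and 53.9 and 55.9 in NULL. The 4 groups did not overlap, in the order WT, G1242V, R787G, NULL. It rose by 3.27 ± 0.24 in NULL (limma adjusted p = 4.42e-06), 11.2 times the WT mean and the 8th largest rise of 6432 features. In R787G it rose by 2.24 ± 0.21 (limma adjusted p = 1.32e-05), 5.41 times the WT mean. In G1242V it rose by 1.23 ± 0.21 (limma adjusted p = 8.20e-04), 2.61 times the WT mean. Neighbours in the order differed too: R787G stood above G1242V by 1.01 ± 0.21 (limma adjusted p = 0.00438) and below NULL by -1.03 ± 0.24 (limma adjusted p = 0.00833). The latter call ended without either NULL library (limma adjusted p = 0.0514 and 0.0587). HUG1 is only 207 bases long, so its TPM rests on few positions.

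SML1, the other small inhibitor of the enzyme, went the other way. It was 371, 358 and 363 scaled TPM in WT and 252 and 252 in NULL, where it fell by 0.53 on the log2 scale (SE 0.071, limma adjusted p = 1.49e-04), while R787G (-0.0095 ± 0.064, limma adjusted p = 0.902) and G1242V (-0.14 ± 0.064, limma adjusted p = 0.0990) did not pass. SML1 transcripts stayed above those of HUG1 in every library: HUG1 was 0.0136 ± 0.00429 of SML1 in WT and 0.218 ± 0.00552 in NULL.

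DUN1 encodes the checkpoint kinase that acts on Rfx1, Sml1 and Dif1 (YDL101C, chromosome IV, 280307 to 281848). It measured 30.3, 32.3 and 39.3 scaled TPM in WT, 55.1, 51.8 and 50.6 in R787G, 52.0, 57.0 and 50.3 in G1242V, and 54.4 and 54.7 in NULL. Every library outside WT was above every WT library. The rise was nearly the same size in each group: 0.62 ± 0.091 in R787G (limma adjusted p = 2.18e-04), 0.63 ± 0.091 in G1242V (limma adjusted p = 2.64e-04) and 0.68 ± 0.10 in NULL (limma adjusted p = 3.02e-04). The differences among these 3 groups ranged from -0.055 to -0.015 and their intervals from -0.28 to 0.19, with limma adjusted p of 0.685 or more. Under 2 of the 3 other scalings DUN1 passed as lower in G1242V than in NULL (-0.29 as deposited, limma adjusted p = 0.0325, and -0.38 after rescaling to coding genes, limma adjusted p = 0.0106). After that rescaling R787G was lower than NULL as well (-0.29, limma adjusted p = 0.0474).

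DIN7 encodes a mitochondrial nuclease related to Exo1 and induced by DNA damage (YDR263C, chromosome IV, 994242 to 995534). Its levels were 8.25, 10.6 and 11.3 scaled TPM in WT, 19.5, 19.8 and 18.3 in R787G, 14.4, 18.4 and 13.8 in G1242V, and 25.3 and 24.6 in NULL. NULL was above all other libraries and WT below all others, while R787G and G1242V overlapped. DIN7 rose by 1.24 ± 0.14 in NULL (limma adjusted p = 4.40e-05), 0.88 ± 0.12 in R787G (limma adjusted p = 1.58e-04) and 0.58 ± 0.12 in G1242V (limma adjusted p = 0.00272). G1242V was below NULL by -0.66 ± 0.14 (limma adjusted p = 0.00232), and by -1.0 after rescaling to coding genes. R787G did not differ past the threshold from NULL (-0.36, limma adjusted p = 0.0602) or from G1242V (0.30, limma adjusted p = 0.0722). Both passed in the TPM as deposited (-0.49, limma adjusted p = 0.0203, and 0.41, limma adjusted p = 0.0252) and after rescaling to coding genes (-0.59, limma adjusted p = 0.00915, and 0.40, limma adjusted p = 0.0359). Without G1242V replicate 2 both passed as well (-0.36, limma adjusted p = 0.0342, and 0.42, limma adjusted p = 0.0172), and without WT replicate 1 too (-0.36, limma adjusted p = 0.0284, and 0.30, limma adjusted p = 0.0350). The former also passed without WT replicate 3 (-0.36, limma adjusted p = 0.0463). The order of the groups by mean was the same as for HUG1.

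RAD54 encodes a DNA translocase of recombinational repair (YGL163C, chromosome VII, 193707 to 196403). It did not follow the genes above. It measured 43.9, 50.9 and 41.7 scaled TPM in WT, 36.2, 35.5 and 31.3 in R787G, 24.6, 27.9 and 22.5 in G1242V, and 55.3 and 53.5 in NULL. The groups did not overlap, with G1242V lowest and NULL highest. RAD54 fell by -0.84 ± 0.097 in G1242V (limma adjusted p = 7.07e-05) and by -0.39 ± 0.097 in R787G (limma adjusted p = 0.00503). In NULL it was 0.26 ± 0.11 above WT, which missed the threshold (limma adjusted p = 0.0628). It passed in the TPM as deposited (0.48, limma adjusted p = 0.00564), after rescaling to coding genes (0.52, limma adjusted p = 0.00510) and after quantile normalization (0.25, limma adjusted p = 0.0469). It also passed without WT replicate 2 (0.34, limma adjusted p = 0.0207), without G1242V replicate 2 (0.25, limma adjusted p = 0.0495) and without replicate 3 of both variants (0.25, limma adjusted p = 0.0463). Both variants were below NULL, R787G by -0.65 ± 0.11 (limma adjusted p = 0.00192) and G1242V by -1.10 ± 0.11 (limma adjusted p = 3.46e-05), and R787G was above G1242V by 0.44 ± 0.097 (limma adjusted p = 0.00522).

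PHR1 encodes the photolyase, which repairs ultraviolet damage with light (YOR386W, chromosome XV, 1066839 to 1068536). It measured 41.5, 45.3 and 57.6 scaled TPM in WT, 28.8, 27.5 and 27.6 in R787G, 47.4, 47.0 and 61.8 in G1242V, and 45.7 and 46.1 in NULL. R787G was below every other library, and the other groups lay within 41.5 to 61.8. PHR1 fell in R787G against WT by -0.75 ± 0.13 (limma adjusted p = 5.54e-04), against G1242V by -0.86 ± 0.13 (limma adjusted p = 8.68e-04) and against NULL by -0.70 ± 0.14 (limma adjusted p = 0.00477). Neither NULL (-0.053, interval -0.37 to 0.27, limma adjusted p = 0.767) nor G1242V (0.11, interval -0.17 to 0.40, limma adjusted p = 0.488) differed from WT past the threshold.

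**Figure D3:**
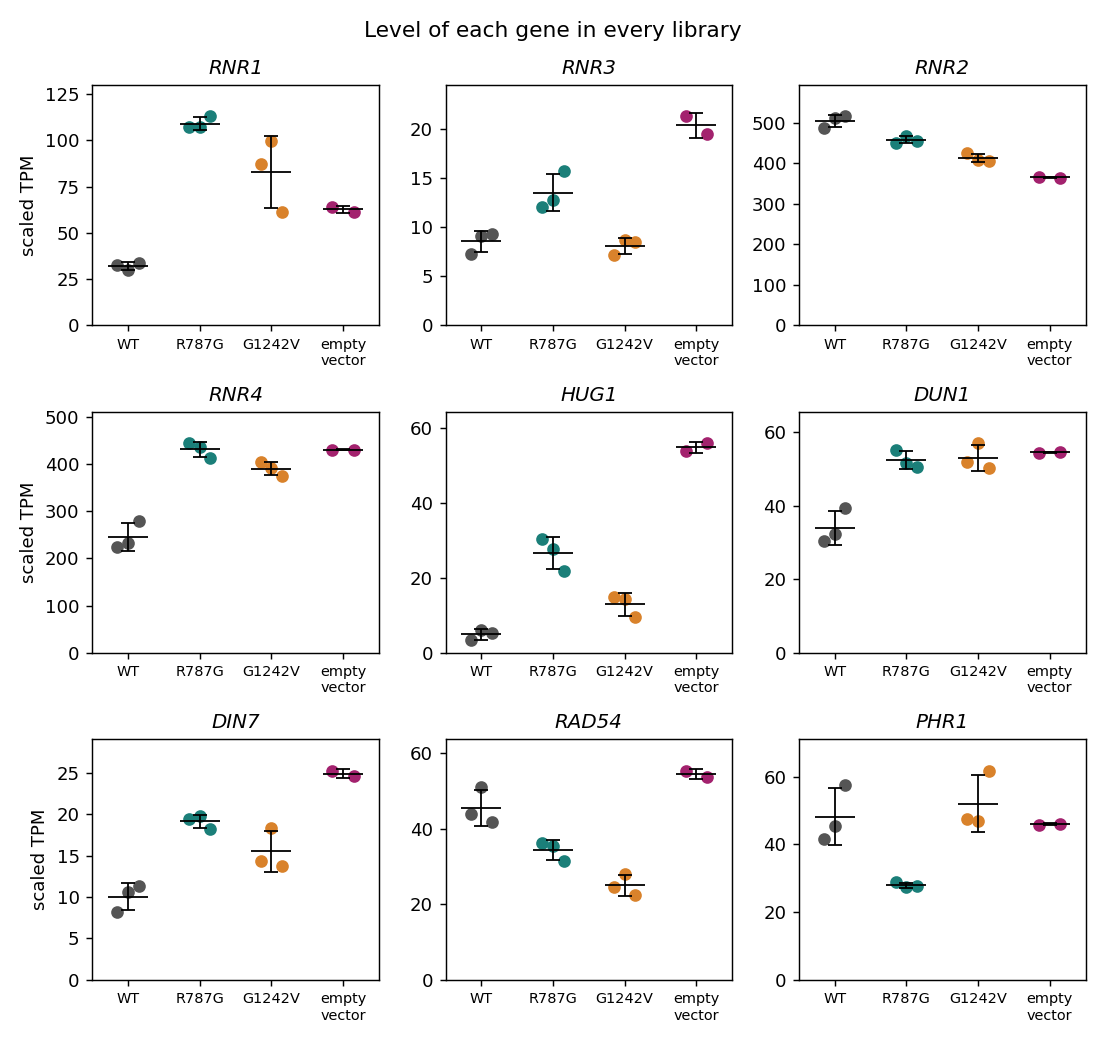
Level of each of the 9 genes in scaled TPM (vertical axes from 0) by group, with points for libraries and bars for mean ± SD. HUG1 rises from 4.92 in WT to 54.9 in NULL (empty vector), RNR1 is highest in R787G at 109, RAD54 is lowest in G1242V at 25, and PHR1 is low in R787G alone at 28.0.

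Counted over the 9 genes, 6 rose and 1 fell in NULL against WT, where 36.8% and 25.2% of all features tested rose and fell (62.0% called). In R787G against WT 6 rose and 3 fell, against 36.5% and 29.3% of all features (65.8% called). In G1242V against WT 5 rose and 2 fell, against 26.6% and 27.3% (54.0% called). The median log2 fold change of the 9 genes was 0.81, 0.62 and 0.58 in these comparisons, beside 0.089, 0.067 and 0.0021 over all features. A rise of HUG1, RNR1, RNR4, DUN1 and DIN7 and a fall of RNR2 were called in all 3 comparisons, which share their WT libraries. Asking also for a 2-fold change left HUG1, RNR3 and DIN7 in NULL (16.6% of all features), HUG1 and RNR1 in R787G (13.7%) and the same pair in G1242V (8.63%). Of the falls in R787G, that of RNR2 kept its call under only 8 of 23 alternatives. The share of the 9 that rose was above that of all features in each comparison. The share that fell was below that of all features in NULL and near it in both variants. These are counts of 9 genes chosen with results known, without a test. An F test over the 4 groups called all 9 genes, where it called 86.3% of features.

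Among the groups without WT, R787G stood apart from G1242V in 5 genes: HUG1, RNR1, RNR3 and RAD54 were higher and PHR1 lower in R787G (46.2% of features were called, 26.3% higher and 19.9% lower). Of these, the RNR1 call was kept under only 14 of 23 alternatives. With TPM as deposited or rescaled to coding genes, 8 of the 9 were called there, 7 of them higher in R787G. Under these settings 3256 and 3052 of all 6432 features were called, 2459 and 2242 of them higher. R787G against NULL had 2 genes higher (RNR1, RNR2) and 4 lower (HUG1, RNR3, RAD54, PHR1), beside 16.9% and 23.0% of all features (39.9% called). G1242V against NULL had 1 higher (RNR2) and 4 lower (HUG1, RNR3, DIN7, RAD54), beside 25.6% and 37.4% (63.0% called). This RNR2 call was kept under only 14 of 23 alternatives, and each other scaling turned its sign. At least 2-fold apart were HUG1 alone in R787G against G1242V (4.49% of all features), HUG1 alone in R787G against NULL (4.71%), and HUG1, RNR3 and RAD54 in G1242V against NULL (12.7%). These comparisons share libraries with each other and with those against WT.

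**Figure D4:**
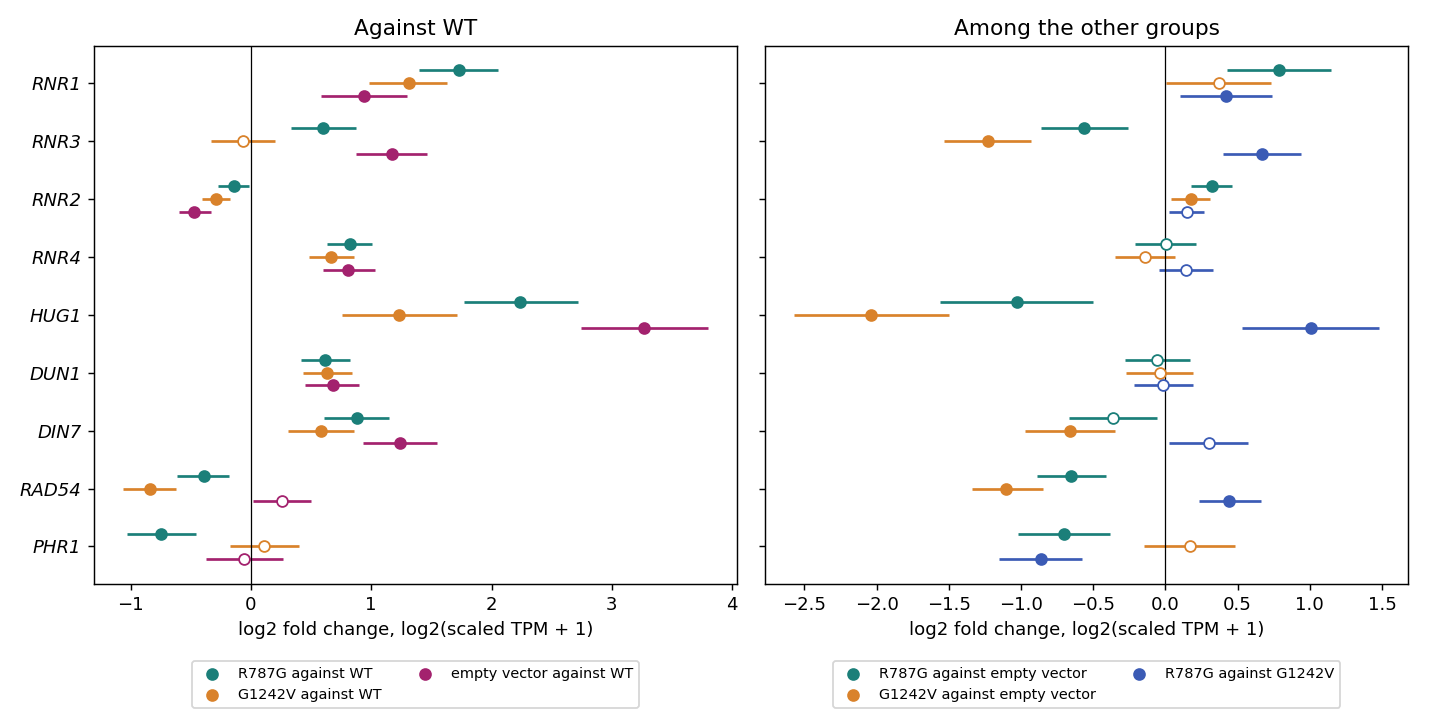
Log2 fold change of each gene (horizontal axes, log2 of scaled TPM + 1) against WT on the left and among the other groups on the right, with lines for 95% confidence intervals. Filled points passed an adjusted p of 0.05 and open points did not. HUG1 spans 1.23 to 3.27 against WT, DUN1 0.62 to 0.68, and RAD54 and PHR1 take both signs.

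Related genes are given next as counts per list, to be read beside the shares of all features that were called against WT: 62.0% in NULL, 65.8% in R787G and 54.0% in G1242V. Differences in a list's counts between groups were not tested. A change printed for some groups only is not thereby particular to them. Of 9 RNR regulators (SML1, DIF1, WTM1, WTM2, RFX1, TUP1, CYC8, MEC1, RAD53), 6 rose and 2 fell in NULL, 4 rose and 2 fell in R787G, and 1 rose and 3 fell in G1242V, all against WT. The checkpoint kinase gene RAD53 rose by 0.84 ± 0.11 in NULL (limma adjusted p = 1.13e-04) and 0.45 ± 0.097 in R787G (limma adjusted p = 0.00223), with 0.23 ± 0.097 in G1242V (limma adjusted p = 0.0671). TUP1 and CYC8 encode the corepressor that Rfx1 recruits. TUP1 rose by 0.55 ± 0.10 in NULL (limma adjusted p = 0.00124) and by 0.53 ± 0.094 in R787G (limma adjusted p = 6.59e-04). CYC8 rose in R787G by 0.63 ± 0.069 (limma adjusted p = 3.27e-05), in G1242V by 0.46 ± 0.069 (limma adjusted p = 3.22e-04) and in NULL by 0.44 ± 0.077 (limma adjusted p = 7.53e-04). WTM1, whose product holds the small subunits in the nucleus, fell in all 3 groups, by -0.96 ± 0.074 in NULL, -0.67 ± 0.066 in R787G and -0.41 ± 0.066 in G1242V (limma adjusted p = 5.44e-06, 1.67e-05 and 5.63e-04). MEC1, the upstream kinase gene, fell in R787G (-0.35 ± 0.068, limma adjusted p = 0.00126) and in G1242V (-0.59 ± 0.068, limma adjusted p = 6.59e-05). RFX1 itself rose or fell by less, with 0.23 ± 0.078 in NULL (limma adjusted p = 0.0249) and -0.22 ± 0.069 in G1242V (limma adjusted p = 0.0223), and in R787G it did not pass (-0.13 ± 0.069, limma adjusted p = 0.115).

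The proteins that feed electrons to the enzyme or help assemble its cofactor are encoded by 10 listed genes, which mostly fell: 8 fell and 1 rose in NULL, 8 fell in R787G and 6 fell in G1242V against WT. Their median was -1.34, -1.36 and -1.06. The thioredoxin gene TRX2 fell by -2.53 ± 0.15 in R787G (limma adjusted p = 1.21e-06), by -2.24 ± 0.15 in G1242V (limma adjusted p = 3.98e-06) and by -1.72 ± 0.17 in NULL (limma adjusted p = 2.39e-05). The glutaredoxin gene GRX2 fell by -2.10 ± 0.12 in NULL (limma adjusted p = 1.24e-06) and -2.02 ± 0.11 in R787G (limma adjusted p = 9.63e-07). In G1242V it fell by less, -0.92 ± 0.11 (limma adjusted p = 6.79e-05). TRR1, the thioredoxin reductase gene, fell by -1.98 ± 0.17 in NULL, -1.73 ± 0.15 in R787G and -1.21 ± 0.15 in G1242V (limma adjusted p = 9.63e-06, 8.11e-06 and 1.15e-04). TAH18, which acts with DRE2 in cofactor assembly, fell by -1.58 ± 0.12 in G1242V, -1.51 ± 0.13 in NULL and -1.42 ± 0.12 in R787G (limma adjusted p = 5.46e-06, 1.10e-05 and 5.95e-06). The exception was GRX3, which rose by 0.30 ± 0.10 in NULL (limma adjusted p = 0.0284). Several of these genes are also known as targets of the oxidative stress factor Yap1.

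Of 9 other genes of deoxynucleotide synthesis, 4 rose and 2 fell in NULL, 5 rose and 2 fell in R787G, and 6 rose and 1 fell in G1242V. The thymidylate synthase gene CDC21 was at 13.5, 19.0 and 16.9 scaled TPM in WT and 40.8, 42.2 and 39.6 in R787G. It rose by 1.27 ± 0.15 in R787G (limma adjusted p = 4.34e-05), 1.26 ± 0.16 in NULL (limma adjusted p = 1.13e-04) and 0.90 ± 0.15 in G1242V (limma adjusted p = 5.27e-04). The guanylate kinase gene GUK1 rose by 0.92 ± 0.080 in R787G (limma adjusted p = 7.91e-06) and 0.77 ± 0.080 in G1242V (limma adjusted p = 3.70e-05). DCD1, the deoxycytidylate deaminase gene, rose by 0.91 ± 0.052 in R787G (limma adjusted p = 1.12e-06), 0.57 ± 0.058 in NULL (limma adjusted p = 2.53e-05) and 0.48 ± 0.052 in G1242V (limma adjusted p = 4.43e-05). The adenylate kinase gene ADK1 fell in NULL (-0.75 ± 0.10, limma adjusted p = 1.61e-04) but rose in G1242V (0.43 ± 0.092, limma adjusted p = 0.00302). Among the other falls were YNK1 in R787G (-0.55 ± 0.16, limma adjusted p = 0.0133) and URA6 in all 3 groups (-0.50 to -0.37).

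Of 19 checkpoint genes, 12 rose and 3 fell in NULL, 8 rose and 6 fell in R787G, and 4 rose and 10 fell in G1242V, against WT. The split in R787G lies near that of all features, 36.5% higher and 29.3% lower. In the TPM as deposited the counts became 13 rises and 1 fall in NULL, 11 and 4 in R787G, and 4 and 11 in G1242V. Under that setting 3425 of all 6432 features rose and 950 fell in NULL. In R787G 2726 rose and 1521 fell, and in G1242V 1598 rose and 1823 fell. In G1242V against NULL, 12 of the 19 were lower and 1 higher, beside 37.4% and 25.6% of all features. RTT107, a scaffold for repair at stalled forks, rose by 0.96 ± 0.090 in R787G (limma adjusted p = 1.19e-05), 0.83 ± 0.10 in NULL (limma adjusted p = 8.03e-05) and 0.53 ± 0.090 in G1242V (limma adjusted p = 7.36e-04). CSM3, of the fork protection complex, rose in R787G (0.52 ± 0.086, limma adjusted p = 4.45e-04), G1242V (0.47 ± 0.086, limma adjusted p = 0.00108) and NULL (0.46 ± 0.096, limma adjusted p = 0.00206). The phosphatase gene PTC2 fell by -0.84 ± 0.080 in NULL, -0.48 ± 0.071 in R787G and -0.37 ± 0.071 in G1242V (limma adjusted p = 1.85e-05, 2.32e-04 and 0.00158). TEL1 fell by -0.44 ± 0.057 in R787G and -0.37 ± 0.057 in G1242V (limma adjusted p = 1.01e-04 and 4.33e-04). PPH3 fell by -0.56 ± 0.10 in G1242V and -0.28 ± 0.10 in R787G (limma adjusted p = 0.00109 and 0.0346).

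Other genes known to be induced by DNA damage moved both ways, as did all features. Of 20, 9 rose and 6 fell in NULL, 6 rose and 8 fell in R787G, and 5 rose and 10 fell in G1242V. Over all features, 36.8% rose and 25.2% fell in NULL, 36.5% and 29.3% in R787G, and 26.6% and 27.3% in G1242V. DDI3 rose by 2.08 ± 0.39 in NULL (limma adjusted p = 0.00118), but it has a near-identical copy, DDI2, so its values are uncertain. The mismatch repair gene MSH6 rose by 1.20 ± 0.11 in NULL (limma adjusted p = 1.55e-05) and 1.19 ± 0.099 in R787G (limma adjusted p = 6.19e-06), and the G1/S gene TOS4 by 1.65 ± 0.12 in R787G (limma adjusted p = 3.10e-06) and 1.30 ± 0.12 in G1242V (limma adjusted p = 1.95e-05). DDR48, also a general stress gene, fell by -1.42 ± 0.18 in NULL, -1.76 ± 0.16 in R787G and -1.29 ± 0.16 in G1242V (limma adjusted p = 1.03e-04, 1.02e-05 and 1.14e-04). DDI1 fell in G1242V (-1.26 ± 0.12, limma adjusted p = 1.61e-05) and in R787G (-0.91 ± 0.12, limma adjusted p = 8.15e-05).

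Recombination genes, 16 beside RAD54, had 8 rises and 4 falls in NULL, 6 and 7 in R787G, and 5 and 7 in G1242V. In the TPM as deposited they had 10 rises and 1 fall in NULL, where 3425 of all 6432 features rose and 950 fell. The Rad54 paralogue gene RDH54 rose by 0.93 ± 0.089 in NULL (limma adjusted p = 1.94e-05) and 0.74 ± 0.080 in R787G (limma adjusted p = 3.06e-05). RAD59 fell by -2.03 ± 0.31 in R787G (limma adjusted p = 2.83e-04), -1.40 ± 0.31 in G1242V (limma adjusted p = 0.00367) and -1.43 ± 0.35 in NULL (limma adjusted p = 0.00509). RAD52 fell by -0.89 ± 0.080 in G1242V (limma adjusted p = 1.44e-05), -0.65 ± 0.080 in R787G (limma adjusted p = 7.02e-05) and -0.24 ± 0.089 in NULL (limma adjusted p = 0.0418). Excision repair genes, several of which also act on ultraviolet damage, had 12 falls and 3 rises of 17 in R787G, 10 falls and 2 rises in G1242V, and 6 falls and 2 rises in NULL. The last became 7 rises and 4 falls in the TPM as deposited, to be read beside the same 3425 rises and 950 falls of all features. RAD2 fell by -1.02 ± 0.075 in R787G, -0.89 ± 0.075 in G1242V and -0.58 ± 0.084 in NULL (limma adjusted p = 2.88e-06, 9.41e-06 and 2.28e-04). The glycosylase gene MAG1 fell by -1.17 ± 0.074 in G1242V, -0.88 ± 0.074 in R787G and -0.46 ± 0.083 in NULL (limma adjusted p = 3.23e-06, 6.19e-06 and 9.26e-04). The glycosylase gene OGG1 rose by 1.48 ± 0.17 in R787G, 1.27 ± 0.20 in NULL and 0.49 ± 0.17 in G1242V (limma adjusted p = 5.39e-05, 3.49e-04 and 0.0359).

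**Figure D5:**
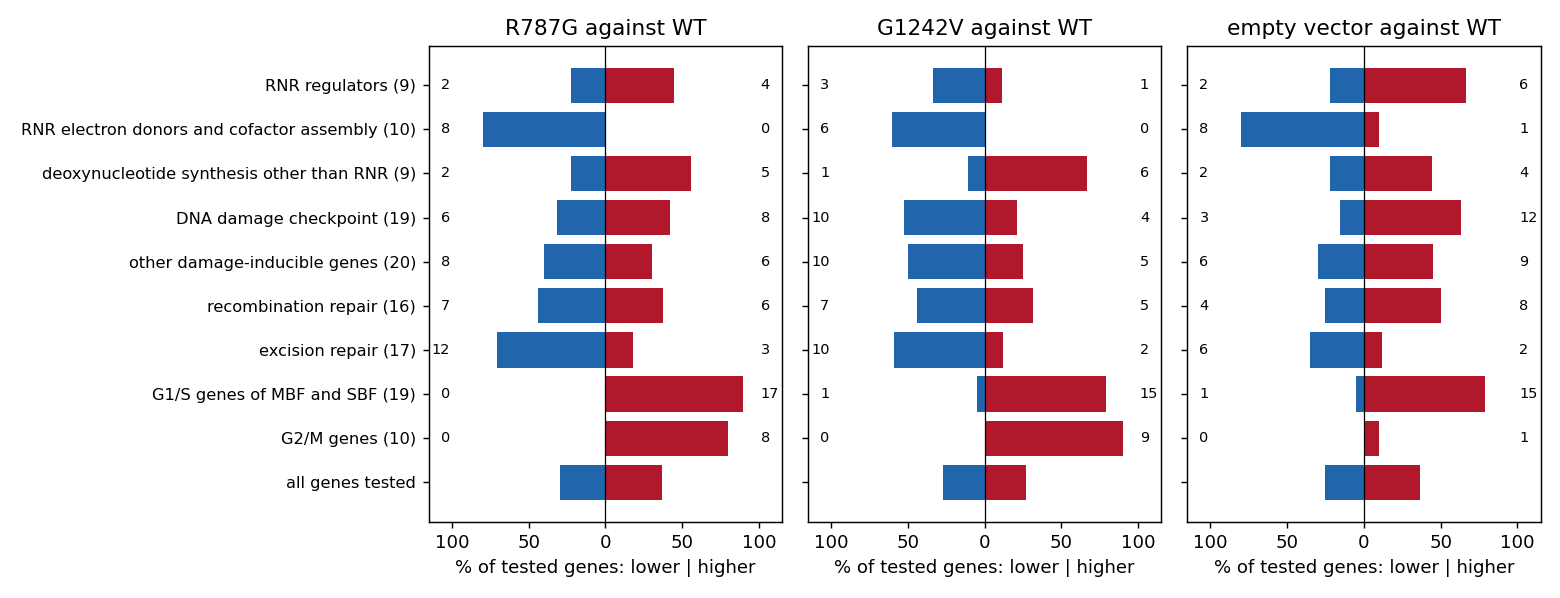
Share of each gene list (percent of tested genes, list sizes in brackets, the 9 genes left out) that passed as lower (left) or higher (right) than WT, with counts at the edges and all features at the bottom. G1/S genes are mostly higher in each comparison (17, 15 and 15 of 19) and electron donor genes mostly lower (8, 6 and 8 of 10).

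Most G1/S genes rose where RNR1 rose. Of 19 G1/S genes, 17 rose in R787G, 15 rose and 1 fell in G1242V, and 15 rose and 1 fell in NULL (the cyclin gene CLN2, -0.60 ± 0.19, limma adjusted p = 0.0188), against WT. In WT their summed level was 545 to 615 scaled TPM. It was 915 to 957 in R787G, while G1242V had 682 to 934 and NULL 796 to 817. POL30, the sliding clamp gene, was at 23.1, 25.8 and 36.1 scaled TPM in WT, 110, 110 and 118 in R787G, 101, 105 and 68.5 in G1242V, and 88.3 and 90.6 in NULL. Replicate 3 of G1242V was the lowest of its group for POL30. So it was for RNR1, HUG1, RNR4, DUN1 and DIN7, and also for RNR2 and RAD54, which fell in G1242V. For RNR3 and PHR1 it was not. Of 10 G2/M genes, 8 rose in R787G and 9 in G1242V, and 1 (KIP2) in NULL. In cultures sequenced in bulk, a larger share of cells in a cell cycle phase and more RNA per cell cannot be told apart, and the part of cell cycle phase in the changes of RNR1 or the other MCB genes was not tested.

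Across the 8 libraries outside WT, likeness was measured as the mean absolute difference between the log2 differences of 2 genes from their WT means, so that 0 is identical. The closest pairs among the 9 genes were RNR4 with DUN1 (0.139), RNR4 with DIN7 (0.201) and DUN1 with DIN7 (0.281). RNR1 was 0.993 from RNR3 and RNR2 was 1.04 from RNR4, so the subunits of a kind were not each other's nearest. Of 5043 other named genes at 10 scaled TPM or more in some group, RRT5 (0.138), the spore wall gene GAS2 (0.163) and the cell wall gene TIR1 (0.173) were nearest to HUG1, where the median gene was 2.10 away. RRT5 and TIR1 averaged only 0.662 and 0.537 scaled TPM in WT and reached 10 in NULL alone, so their log2 differences rest largely on the pseudocount. Nearest to RNR1 were the inositol transporter gene ITR1 (0.0912), the ribosomal protein gene RPL7B (0.0915) and the fatty acid elongase gene ELO2 (0.0947). The DNA primase gene PRI2 (0.058) was nearest to RNR4, the recombination gene SAE2 (0.0647) to DUN1, and the spindle pole body gene SPC42 (0.0854) to DIN7. RNR2 was nearest to IMO32 (0.0521), RNR3 to the spore wall gene CRR1 (0.101, which reached 10 scaled TPM in NULL alone), RAD54 to CTK3 (0.0874) and PHR1 to the kinase gene KIN82 (0.121).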

How the data were processed

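The authors deposited a table of TPM with a row per feature and a column per library, and its name points to RSEM. The submitters' processing notes name sacCer3 as the build and list edgeR, RSEM, STAR and bcl2fastq 2.17 as tools. Annotation, other versions and strand setting: not given in the sources used here. Per the labels' protocols, reads were 50 bases, single-end. Depth is unknown, so no count model was used.

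Of 7036 rows, 1 was shifted by a field and left out. Names came from the reference annotation by locus tag (5955 rows) or symbol (41), and 1039 rows were not matched. Of the 9 genes, 6 were also named in the file. Each library's TPM were scaled with 1 median-of-ratios factor, computed from 5221 features with at least 10 TPM in every library. Under R 4.3.3, limma 3.58.1 (two-sided, trended eBayes) was fitted to log2(scaled TPM + 1) over all 11 libraries and 4 groups without covariates. The procedure was tested on simulated data. Identity and sequences were computed from the R64 genome with Biopython 1.88 in Python 3.11.15, and figures drawn with matplotlib 3.10.9.

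Members, gene lists and alternatives were chosen with earlier results of these data known. Genes named from a list were up to 2 rises and 2 falls with the largest change among those past the threshold, and the text names part of them, plus SML1, RFX1 and other list genes tied to the 9, chosen after their values were seen. DDC2 was matched as LCD1. P-values set each difference against a spread between cultures estimated from all 4 groups together. For NULL, with n = 2, that spread rests mostly on the other groups.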

Additional observations from a re-analysis of the deposited data

How the results depend on the processing

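Over 23 alternatives (other scalings, pseudocounts of 0.1 and 5, other filters and variance models, the groups compared alone, the replicate number as a block, and libraries left out), 38 of 54 pairs of gene and comparison kept their side of the threshold, and 16 did not under at least 1. Of the 38, the 33 called pairs also kept their direction, while the 5 uncalled pairs each turned sign under some alternative. The F test called 9 genes under each alternative it was run in. Requiring a 2-fold change as well left 3 genes in NULL against WT, 2 in R787G against WT, 2 in G1242V against WT, 1 in R787G against NULL, 3 in G1242V against NULL and 1 in R787G against G1242V. TPM as deposited and rescaling to coding genes each called 8 genes in R787G against G1242V. Leaving out libraries gave 7 to 8 genes in NULL against WT, 8 to 9 in R787G against WT, 7 in G1242V against WT, 4 to 7 in R787G against NULL, 4 to 6 in G1242V against NULL and 4 to 6 in R787G against G1242V.

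RNR2 in G1242V against NULL turned from 0.18 to -0.082 in the TPM as deposited, -0.16 after rescaling to coding genes and -0.29 after quantile normalization, and RNR4 in R787G against NULL from 0.0034 to -0.37 after quantile normalization. The median of all features in NULL against WT moved from 0.09 to 0.31 and 0.35 under the first pair of scalings, and the higher share of calls from 59.3% to 78.3% and 80.7%. The higher share of calls in R787G against G1242V moved from 57.0% to 75.5% and 73.5%, in R787G against NULL from 42.4% to 21.4% and 13.2%, and in G1242V against NULL from 40.6% to 20.7% and 16.4%. G2/M genes called in NULL against WT went from 1 to between 2 and 5 under 7 alternatives. The cause of these shifts was not tested.

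Deviations from the group means correlated at r -0.159 to 0.274 between same-numbered replicates (15 pairs) and at r -0.384 to 0.3 between differently numbered ones of other groups (30 pairs). With the replicate number as a block, 7, 8 and 7 genes were called in NULL, R787G and G1242V against WT, 6 in R787G against NULL, 4 in G1242V against NULL and 4 in R787G against G1242V. The calls lost were RNR2 in R787G against WT (-0.14, limma adjusted p = 0.0786) and in G1242V against NULL (0.18, limma adjusted p = 0.0671), and RNR1 in R787G against G1242V (0.42, limma adjusted p = 0.0511).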
